A study of Mus musculus with 4 samples.

Results

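The mouse Th2 cytokine locus on chromosome 11 holds the genes of interleukin-4, interleukin-13 and interleukin-5 around the DNA repair gene Rad50. Its 8 members were the rows of Sept8, Kif3a, Il4, Il13, Rad50, Il5, Gm12214 and Irf1, taken by symbol in genome order from tables of 50600 rows, and all 8 were found. A row is 1 annotated gene on 1 strand. The rule uses name and position and no measured value, though the members were proposed with earlier results of these data known. Of the 8 rows, 7 are annotated as protein-coding and Gm12214 as antisense, since it lies opposite Il5 on the other strand.

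RNA was sequenced from primary T helper 2 (Th2) cells of mouse strain C57BL/6NJ in 4 libraries of 1 group, numbered 1 to 4 as biological replicates. No mutant allele or compared treatment is named, the age is given as unknown and the sex as not collected, and by the file headers the cells were taken at 48 hours in a time course of Th1 and Th2 differentiation. All libraries carry 1 donor identifier but separate biosamples, and nothing says whether these were separate mice or cultures, so each p-value measures only the spread between these samples, which may be technical. With 1 group there was no contrast between conditions, and rows were compared within each library and between replicates.

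Th2 cells help B cells make IgE and recruit eosinophils, mainly through the 3 interleukins of this locus. Il4 and Il13 arose from 1 ancestral gene and are switched on together when T cell receptor signals bring NFAT and AP-1 factors to a locus opened by GATA3 and STAT6. The locus control region that coordinates the cytokine genes lies in the 3′ part of Rad50, a gene that itself encodes a subunit of the MRE11 complex for repair of broken DNA. Kif3a (a kinesin motor of cilia) and Sept8 (a septin of the cytoskeleton) lie on one side, and Irf1, an interferon-induced transcription factor gene, on the other.

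The promoters of the 3 cytokine genes are shown because the known inducers of the locus act there. RefSeq promoters (GRCm38.p6) were matched by symbol for 6 of the 8 members, Sept8 under its later symbol Septin8. For each cytokine gene the 250 bases before the transcription start are given 5′ to 3′ on the gene's strand, Il4 at chr11:53618666-53618915 (minus strand), Il13 at chr11:53634703-53634952 (minus strand) and Il5 at chr11:53720544-53720793 (plus strand). Capitals mark every match, on either strand, to GATA, to the NFAT core GGAAA, to TATAAA or to the AP-1 motif TGANTCA.
Il4: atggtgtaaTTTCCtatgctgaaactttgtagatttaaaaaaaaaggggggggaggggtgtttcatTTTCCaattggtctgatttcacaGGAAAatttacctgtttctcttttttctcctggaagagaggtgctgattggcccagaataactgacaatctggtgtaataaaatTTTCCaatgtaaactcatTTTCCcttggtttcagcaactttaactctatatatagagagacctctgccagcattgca
Il13: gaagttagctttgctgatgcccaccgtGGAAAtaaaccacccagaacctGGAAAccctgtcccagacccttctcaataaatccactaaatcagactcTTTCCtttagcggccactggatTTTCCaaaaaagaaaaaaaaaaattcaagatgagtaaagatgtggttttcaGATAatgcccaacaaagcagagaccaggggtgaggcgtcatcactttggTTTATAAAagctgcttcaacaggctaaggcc
Il5: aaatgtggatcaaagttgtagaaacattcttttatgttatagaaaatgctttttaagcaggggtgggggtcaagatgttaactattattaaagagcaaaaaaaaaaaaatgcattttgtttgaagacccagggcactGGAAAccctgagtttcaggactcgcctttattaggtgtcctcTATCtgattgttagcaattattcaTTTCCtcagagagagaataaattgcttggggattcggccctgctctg

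The NFAT core was found at 5 places before Il4, at 4 before Il13 and at 2 before Il5. The match nearest the start began 59 bases before it in Il4, 131 in Il13 and 47 in Il5. GATA was found once before Il13, beginning 80 bases from the start, and once before Il5, at 71 bases, and had no match in the Il4 window. TATAAA was found before Il13 alone of the 3, as overlapping matches on both strands that begin 31 and 29 bases from the start. TGANTCA had no match in the 3 windows. Of 32817 mouse promoter windows of this length, 55.6% hold the NFAT core, 53.6% GATA, 12.4% TATAAA and 6.75% TGANTCA, so single matches of the first 2 are common. A match describes these letters and is not a measured binding site.

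Totals were 1785970 to 2271993 counts of read pairs per library, and 13557 to 14344 rows had at least 1 count. A row at 0 allows up to 3 counts, the floor used throughout, equal to 1.32 to 1.68 CPM (counts per 1000000 of the library). Most counts fell in rows with an exon that overlaps a row of the opposite strand: such rows were 16.2% of the table (8189 of 50600) and held 93.4% ± 0.855 of the counts (SD, n = 4). Rows of genes used by every cell could be low, with Actb at 364, 302, 246 and 315 counts and B2m at 51, 38, 26 and 23 in replicates 1 to 4. Counting was strand-specific, with strand setting 1 per the file headers, and the strand that the library kit marks is not given in the sources used here. Every level below is therefore the count assigned to a row on its strand, and which transcript gave the pairs was not tested. Library pairs differed by 1.91 to 3.71 times the counting noise (chi-square per degree of freedom, without the rows CT010467.1 and Gm42418), so no pair agreed within counting noise. Those 2 rows, at a ribosomal RNA site, held 3.25% to 5.02% of counts in replicates 1 to 3 and 15.9% in replicate 4.

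The stretch from the outer end of Sept8 to that of Irf1 (chr11:53519257-53778374, mm10) spans 259 kb and holds 14 rows. Together they had 330, 365, 307 and 242 counts in replicates 1 to 4. The 8 rows with counts were 7 members and Gm17334, which lies opposite Irf1. The other 6 rows, Il5 among them, had 0 in all 4 libraries: the RNA gene A430108G06Rik, the pseudogenes Rps2-ps4 and Gm12213, the small RNA gene Gm22275 and the microRNA gene Mir7671. The 7 minus-strand rows took 313, 336, 296 and 231 counts, against 17, 29, 11 and 11 for the 7 plus-strand rows. The minus strand thus held 94.7% ± 1.87 of the counts of the stretch (SD, n = 4), although its exons sum to 10693 bp and those of the plus strand to 16482 bp. Gm17334 alone held 46.5% ± 7.56 and Gm12214 20.6% ± 4.40 of these counts, Rad50 11.5% ± 2.76, Il4 10.2% ± 2.09 and Il13 5.81% ± 2.22.

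**Figure D1:**
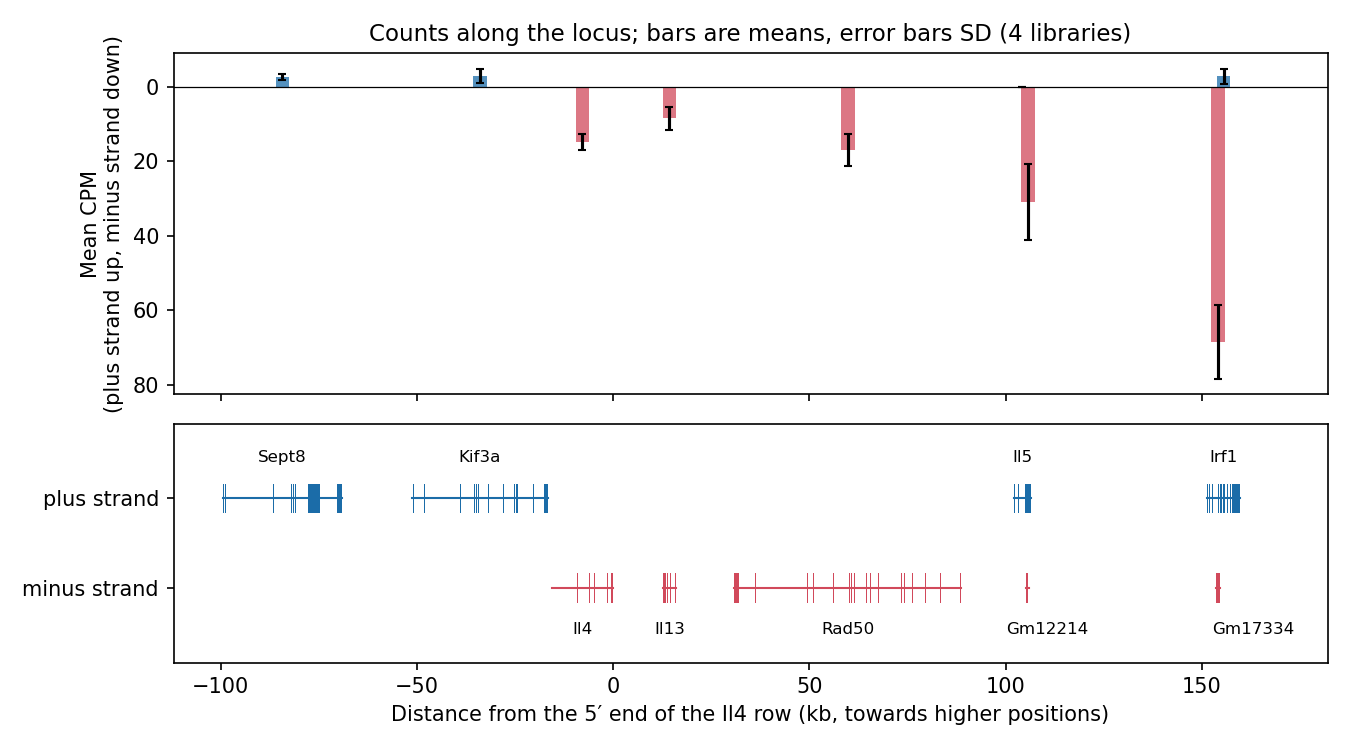
Upper panel: mean CPM of each member and Gm17334 (bars, SD over 4 libraries as error bars), plus strand upwards and minus strand downwards, against distance in kb from the 5′ end of the Il4 row. Lower panel: the exons of the same rows with positions to scale, so that the bars of Gm12214 and Gm17334 are seen to lie under Il5 and Irf1 on the other strand.

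Of the 8 members, Il4, Il13, Rad50 and Gm12214 had more than 3 counts in all 4 libraries. The share that did was 14.8% of all rows, 26.5% of protein-coding rows, 19.0% of protein-coding rows with no opposite-strand exon overlap, and 32.7% of rows typed antisense. In the members with no such overlap, Il4, Il13, Rad50, Kif3a and Sept8, the number was 3 of 5. The other 3 members, Il5, Gm12214 and Irf1, each share exon bases with a row on the other strand.

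Il4, the cytokine gene that drives Th2 differentiation and the switch to IgE, lies at chr11:53602982-53618669 on the minus strand. Its row had 38, 27, 37 and 24 counts in replicates 1 to 4. As CPM, with 95% Wilson intervals, the values were 16.7 (12.2 to 23.0), 12.8 (8.79 to 18.6), 16.8 (12.2 to 23.1) and 13.4 (9.03 to 20.0), so the 4 intervals overlap. Per length the level was 20.5, 15.5, 20.5 and 17.4 TPM (counts per exon length, scaled to a sum of 1000000 in each library). The mean was 18.5 ± 2.46 (SD, n = 4), at percentile 95.2 of all rows. That percentile includes the many rows at 0, and Sept8, with 3 to 7 counts, stood at 79.0 on it. The Il4 counts varied by 0.632 times what counting noise gives (chi-square per degree of freedom). The median was 1.97 over the 5064 rows tested for variation. Those rows are of any abundance, so the median is not matched to the counts of Il4.

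Il13, which acts on airway epithelium, smooth muscle and mucus-producing cells, lies 12654 bp from Il4 at chr11:53631324-53634702 on the same strand. It had 26, 17, 10 and 18 counts, or 11.4 (7.81 to 16.8), 8.05 (5.02 to 12.9), 4.54 (2.46 to 8.35) and 10.1 (6.38 to 15.9) CPM. Replicate 3 was lowest. The TPM values were 14.3, 9.93, 5.64 and 13.3, with a mean of 10.8 ± 3.89 (SD, n = 4), at percentile 93.9 of all rows. Its counts varied by 2.33 times counting noise.

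Per length, Il4 stood above Il13 in each library. The ratio of TPM was 1.44, 1.56, 3.63 and 1.31, highest in replicate 3, the library where Il13 was lowest. On the log2 scale of TPM + 1 the difference was 0.79 ± 0.613 (SD, n = 4), positive in 4 of 4 libraries (p = 0.13, exact two-sided sign-flip test). That is the smallest p that 4 libraries can give, so none of the 7 ratios computed between locus rows could pass 0.05, before or after adjustment. Without replicate 3 the mean difference was 0.48. The CPM intervals of the 2 rows overlapped in replicates 1, 2 and 4 and did not in replicate 3.

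Rad50 (chr11:53649519-53707319, minus strand, 5375 bp of exon) lies 14816 bp beyond Il13. It had 40, 43, 24 and 35 counts, or 17.6 (12.9 to 24.0), 20.4 (15.1 to 27.4), 10.9 (7.32 to 16.2) and 19.6 (14.1 to 27.3) CPM, lowest in replicate 3. The TPM values were 4.92, 5.63, 3.03 and 5.78, with a mean of 4.84 ± 1.26 (SD, n = 4). Il4 was above Rad50 per length by 1.76 ± 0.496 and Il13 above Rad50 by 0.97 ± 0.312 (log2 of TPM + 1, SD, n = 4), each in 4 of 4 libraries (exact p = 0.13). This order holds per length only: as CPM + 1, which ignores length, Il4 over Rad50 was -0.16 (exact p = 0.5) and Il13 over Rad50 -0.95 (exact p = 0.13).

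**Figure D2:**
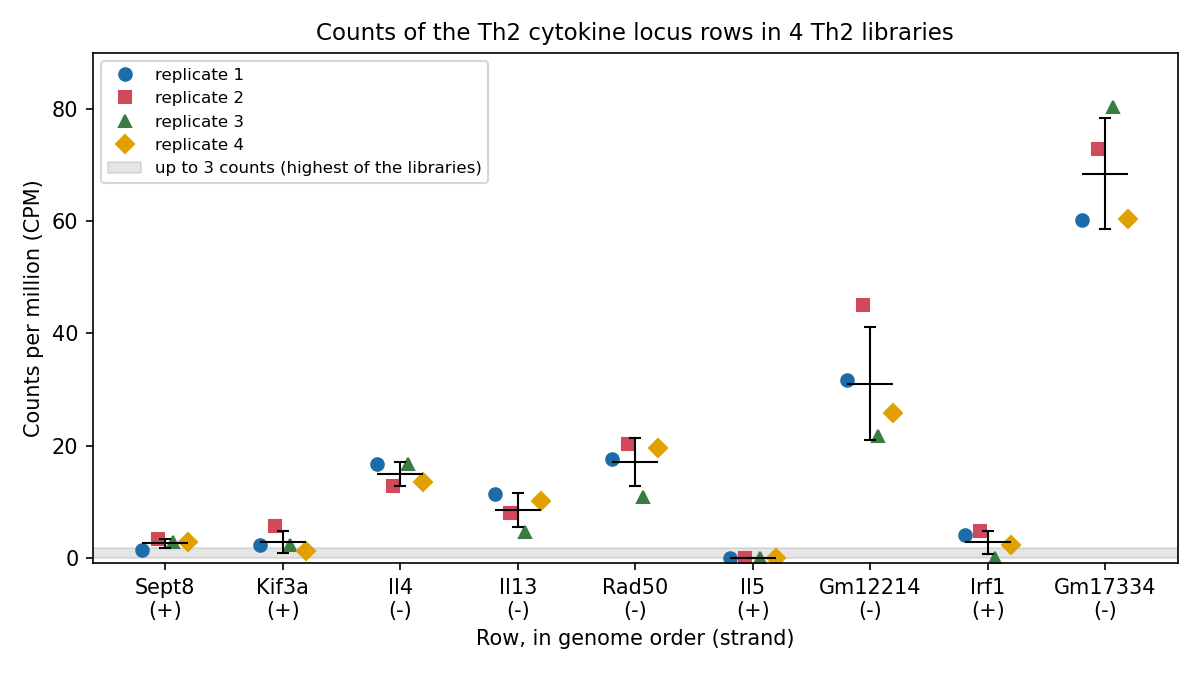
CPM of the 8 members and Gm17334 in genome order, with 1 symbol per replicate, the mean and SD in black, and a grey band up to 3 counts in the shallowest library. Il5 sits at 0 in all 4 libraries, while Gm12214 opposite it spans 21.8 to 45.0 CPM.

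In replicate 3, where Il13 and Rad50 were lowest, the rows without an opposite-strand overlap also held their lowest share of counts: 7.53%, 6.88%, 5.48% and 6.67% in replicates 1 to 4. Scaled as CPM of the counts of those rows alone, Il13 stood at 152, 117, 82.8 and 151 and Rad50 at 234, 296, 199 and 294, with replicate 3 still lowest for both. On that scale Il4 stood at 222, 186, 306 and 201, highest in replicate 3. The coefficient of variation was 26.2% for Il13 against 35.2% as CPM, 18.6% for Rad50 against 25.2%, and 23.4% for Il4 against 14.2%. For Kif3a it was 67.2% against 70.3%, and for Sept8 37.9% against 33.6%, so it did not fall in every row. The part of that share in the values of replicate 3 was not tested.

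**Figure D3:**
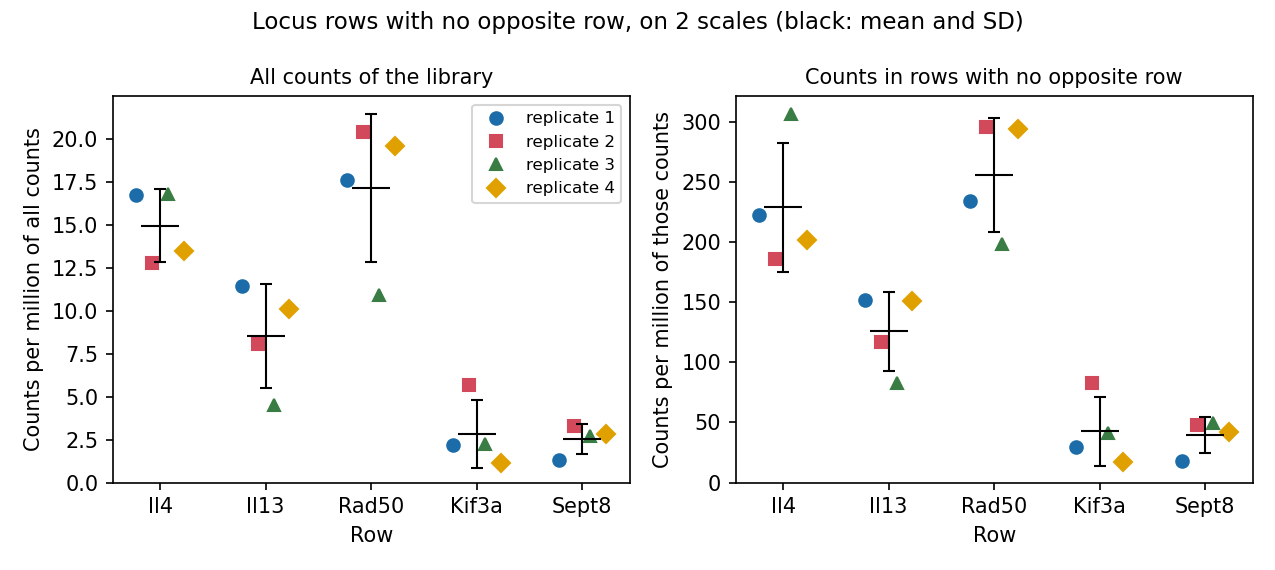
Levels of the 5 members with no opposite row, as CPM of all counts (left) and as CPM of the counts in rows with no opposite-strand overlap (right), with 1 symbol per replicate and the mean and SD in black. Il13 and Rad50 are lowest in replicate 3 on both scales, and Il4 is highest there on the right.

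Il5, the growth and survival factor of eosinophils, had 0 counts in all 4 libraries on its 1537 bp of exon (chr11:53720794-53725106, plus strand). A count of 0 allows up to 3 counts, or 1.29 to 1.73 TPM. Gm12214, the antisense row at the same place (chr11:53723953-53724618, minus strand, 2 exons), had 72, 95, 48 and 46 counts. All of its 417 exon bases lie on exon bases of Il5, where they make up 27.1% of the Il5 row. Of them 59 are opposite coding bases of the last Il5 exon and the rest opposite its stop codon and 3′ UTR (GENCODE vM21). The coding bases that both rows cover are shown on each strand (chr11:53723953-53724011), since a pair falling there is counted for one row or the other by its strand alone.
Il5: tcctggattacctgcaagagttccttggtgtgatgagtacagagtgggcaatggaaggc
Gm12214: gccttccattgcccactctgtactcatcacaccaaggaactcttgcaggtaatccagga

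As CPM, Gm12214 stood at 31.7 (25.2 to 39.9), 45.0 (36.8 to 55.0), 21.8 (16.4 to 28.9) and 25.8 (19.3 to 34.4). Replicate 2 was highest, and its interval lay above those of replicates 3 and 4. The TPM values were 114, 160, 78.2 and 97.9, with a mean of 113 ± 35.0 (SD, n = 4), the highest of the members. Counts varied by 6.95 times counting noise. In counts Gm12214 was at least 24-fold, 31.7-fold, 16-fold and 15.3-fold higher than Il5 in replicates 1 to 4, with Il5 set to 3 counts in each library. The strand marked by the kit is not given, and whether these pairs came from Gm12214 or from Il5 transcripts was not tested. With the opposite strand setting the counts at the shared bases would go to the other row. The 0 of the Il5 row therefore sets no limit on Il5 transcripts. On the log2 scale of TPM + 1 the difference was 6.78 ± 0.431 (SD, n = 4, positive in 4 of 4, exact p = 0.13), a size that rests on the pseudocount since Il5 was at 0. Against Il4, Gm12214 was 2.51 ± 0.582 higher per length (log2 of TPM + 1, 4 of 4 libraries, exact p = 0.13). That ratio was chosen after the counts were seen.

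Irf1 (chr11:53770014-53778374, plus strand), which activates interferon response and antigen presentation genes, had 9, 10, 0 and 4 counts on 3976 bp of exon. Its mean was 1.04 ± 0.784 TPM (SD, n = 4), with replicate 3 at 0. Gm17334, a protein-coding row in GENCODE vM21 that lies across Irf1 on the minus strand (chr11:53772281-53773187, 1 exon of 907 bp), had 137, 154, 177 and 108 counts. It is not a member and was followed because it shares exon bases with one. The 2 rows share 135 bp, which is 3.40% of Irf1 and 14.9% of Gm17334, and 100 of these bases are a coding exon of Irf1 (chr11:53772839-53772938), shown on each strand.
Irf1: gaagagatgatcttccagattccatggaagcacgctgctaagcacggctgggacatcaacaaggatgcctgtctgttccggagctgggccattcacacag
Gm17334: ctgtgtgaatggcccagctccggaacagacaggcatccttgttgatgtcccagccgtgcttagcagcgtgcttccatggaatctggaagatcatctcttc

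Gm17334 stood at 60.3 (51.0 to 71.3), 72.9 (62.3 to 85.4), 80.3 (69.3 to 93.0) and 60.5 (50.1 to 73.0) CPM, highest in replicate 3, where Irf1 was at 0. Its mean was 114 ± 14.7 TPM (SD, n = 4), close to that of Gm12214. In counts it was 15.2-fold and 15.4-fold higher than Irf1 in replicates 1 and 2, at least 59-fold in replicate 3 with Irf1 set to 3 counts, and 27-fold in replicate 4. The log2 difference of TPM + 1 was 5.91 ± 0.792 (SD, n = 4, 4 of 4 libraries, exact p = 0.13). This ratio too was chosen after the counts were seen.

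Outside the stretch but in the same cytokine cluster, Csf2, which encodes the growth factor GM-CSF, had 12, 17, 3 and 4 counts (chr11:54247271-54249667, minus strand). Gm12223 on the plus strand, sharing 96 bp with it, had 2423, 2309, 1981 and 1445. Here, as in the pairs at Il5 and Irf1, the row with more counts was the one opposite the cytokine gene or Irf1. Since Csf2 is on the minus strand, that row was on the plus strand here and on the minus strand in the other pairs. Il3, a growth factor gene for basophils and mast cells with no opposite row, had 15, 14, 8 and 8 counts, a mean of 12.8 ± 3.49 TPM (SD, n = 4).

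**Figure D4:**
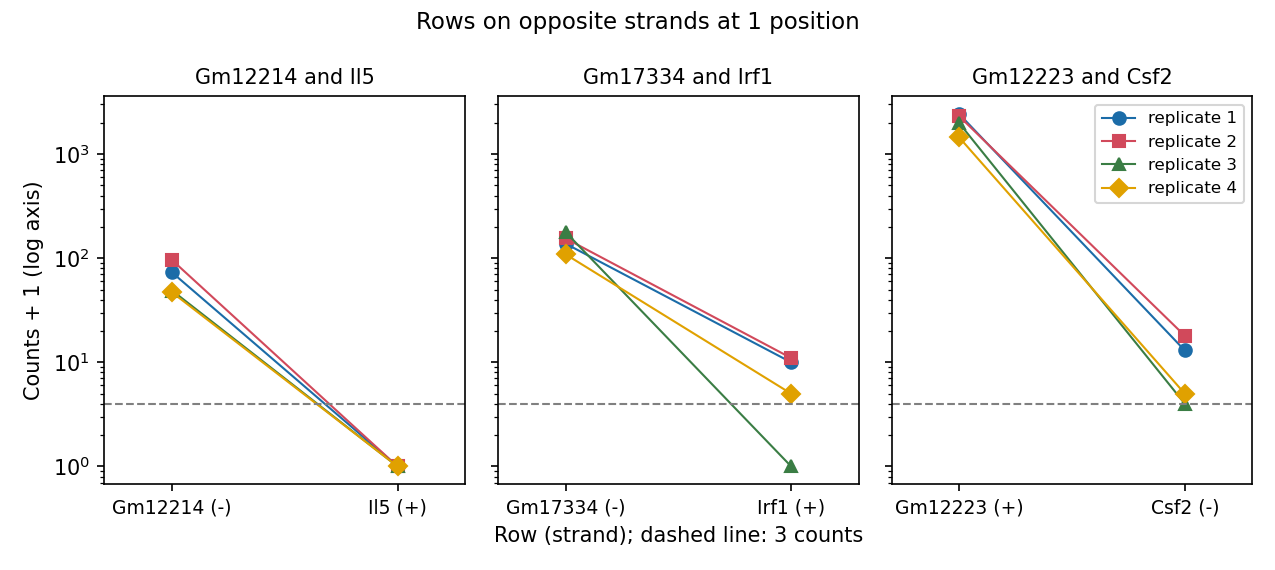
Counts + 1 (log axis) of 3 pairs of rows that share exon bases on opposite strands, with 1 line per library and a dashed line at 3 counts. In each library the left row of a pair is above the right one: Gm12214 at 46 to 95 counts with Il5 at 0, Gm17334 at 108 to 177 with Irf1 at 0 to 10, and Gm12223 at 1445 to 2423 with Csf2 at 3 to 17.

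Kif3a (chr11:53567379-53601967, plus strand), which ends 1014 bp from the Il4 row, had 5, 12, 5 and 2 counts, or 1.18 ± 0.811 TPM (SD, n = 4). Sept8 (chr11:53519257-53549565, plus strand) had 3, 7, 6 and 5 counts, or 0.634 ± 0.213 TPM. In 1 library each, Kif3a (replicate 4) and Sept8 (replicate 1) did not exceed 3 counts. Rad50 was above Kif3a per length by 1.46 ± 0.560 (log2 of TPM + 1, 4 of 4 libraries, exact p = 0.13). The ratio of TPM was 5.34, 2.39 and 3.20 in replicates 1 to 3, and 7.78 in replicate 4 with Kif3a set to 3 counts.

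By mean TPM the order of the members was Gm12214, Il4, Il13, Rad50, Kif3a, Irf1, Sept8 and Il5. This ranks counts assigned to rows by strand, and Gm12214, Irf1 and Il5 share exon bases with an opposite row. The order of the transcripts themselves was not tested. Neighbours differed by more than their spread in 5 of 7 steps, meaning that the mean log2 ratio exceeded its SD and had 1 sign in all 4 libraries. Kif3a and Irf1 (0.13 ± 0.630, positive in 2 of 4) and Irf1 and Sept8 (0.23 ± 0.722, positive in 3 of 4) did not. The step from Sept8 to Il5 compares counts of 3 to 7 with 0, which allows up to 3. By CPM, without regard to length, Rad50 moved above Il4, and 3 steps exceeded their spread.

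**Figure D5:**
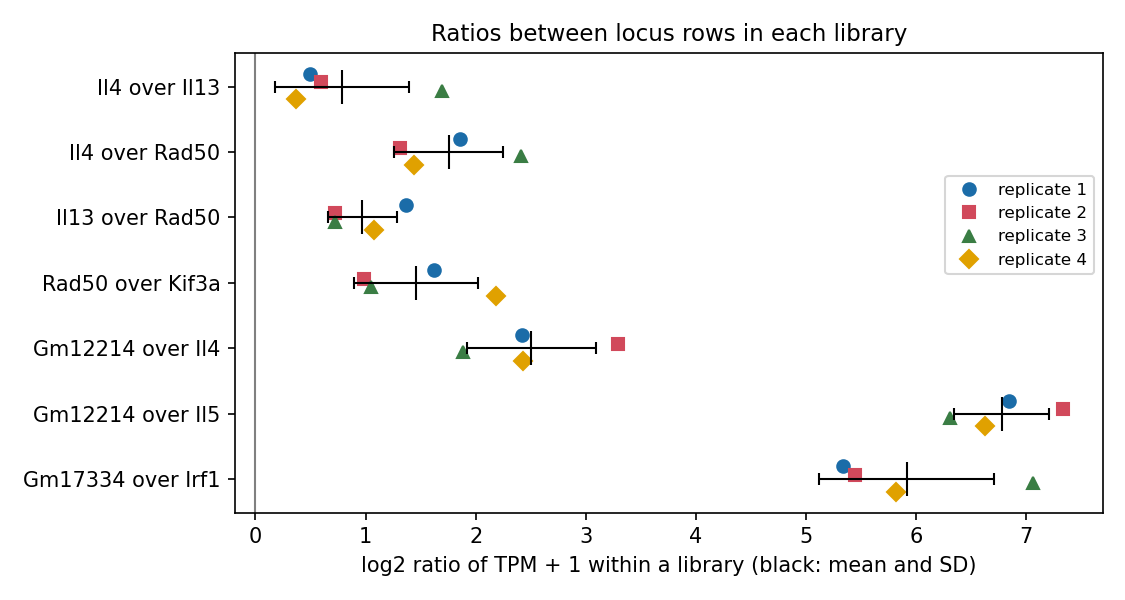
Log2 ratios of TPM + 1 between locus rows within each library, with 1 symbol per replicate and the mean and SD in black. All 4 libraries lie to the right of 0 for each of the 7 ratios, and replicate 3 is farthest right for Il4 over Il13, Il4 over Rad50 and Gm17334 over Irf1.

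Variation between the 4 libraries was tested over all rows with enough counts by edgeR goodness of fit, which asks whether a row varies more than rows of like abundance. Of 5064 rows 23 passed (0.454%, Benjamini-Hochberg adjusted p under 0.05), and 260 had an unadjusted p under 0.05. Il4, Rad50 and Gm12214 had enough counts to be tested, and 0 of these 3 passed. Their unadjusted p-values were 0.822, 0.273 and 0.0844 in edgeR (adjusted p = 1.00 for each). Il13 missed the count filter through replicate 3, and Kif3a, Sept8, Il5 and Irf1 were too low. With no filter, 7 members were tested and 0 passed. The lowest p there was that of Irf1, 0.00800 unadjusted and 0.808 adjusted in edgeR. No member passed with DESeq2 size factors in edgeR either.

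Protein-coding rows with the most similar TPM over the 4 libraries were found by the distance between profiles of log2(TPM + 1). For Il4 they were Bccip, Nkx6-2 and AU040320, at distances of 0.203, 0.208 and 0.219. For Il13 they included Srp14 and Pinx1, at 0.206 and 0.295, both also lowest in replicate 3 (Srp14 had 26, 16, 11 and 16 counts). Likeness over 4 libraries of 1 group describes these values and no more.

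Genes known to act with the locus were counted by the same rule. Each count below is read beside the 26.5% of protein-coding rows with more than 3 counts in every library. That share was lower, 19.0%, in rows with no opposite-strand exon overlap, and so higher in rows with one. Of the 16 factor genes 7 have such an overlap, and of the 9 signalling genes 4. Of 16 genes of factors that bind or loop the locus, 14 had more than 3 counts in every library. They included Gata3, the lineage factor of Th2 cells (44, 35, 21 and 20 counts, 5.39 ± 1.68 TPM), Irf4 (111, 115, 81 and 90, 15.3 ± 2.54) and Batf (38, 39, 36 and 33, 27.8 ± 2.32), which pair at AP-1 composite sites, and Nfatc1 (35, 24, 36 and 18, 2.71 ± 0.579; SD, n = 4). Junb, an AP-1 subunit gene, was the highest of the list at 116 ± 10.8 TPM and shares 173 bp with Prdx2 on the other strand. Ctcf and Rad21, whose products form chromatin loops, stood at 14.1 ± 0.729 and 13.1 ± 2.73 TPM. Satb1, a chromatin organiser that folds this locus in activated Th2 cells, stood at 5.45 ± 1.04 (SD, n = 4). Maf, an activator of Il4, had 0, 0, 1 and 0 counts, and Bhlhe41 had 0 in all.

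Opposite Gata3, the row Gm13256 had 2300, 2218, 2625 and 2048 counts. Of 5 repressor genes 2 had more than 3 counts in every library, near the 26.5%: Runx3, which binds an Il4 silencer (16, 4, 12 and 16 counts), and Zfpm1, a GATA cofactor gene (39, 18, 35 and 20). Of 9 genes of cytokine signalling 8 did, with Stat6, the factor that interleukin-4 receptors activate, at 70, 65, 61 and 50 counts (10.1 ± 0.490 TPM). Jak2, with 231, 237, 85 and 145 counts and lowest in replicate 3, was the only member of these lists that passed the edgeR variation test. Of 6 receptor genes 2 had more than 3 counts in every library, also near the 26.5%: Il4ra (20, 17, 16 and 12 counts), the shared receptor chain of interleukin-4 and interleukin-13, with Gm44876 opposite it at 631, 711, 764 and 511, and Il2rg (12, 9, 5 and 5). Il13ra1 had 0, 0, 2 and 0 counts, and Il13ra2, Il5ra and Csf2rb had 0 in all 4 libraries.

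Partners of the flanking genes were partly covered. The 3 genes of RAD50 partners all had more than 3 counts in every library: Mre11a (17, 10, 14 and 14), Nbn (28, 12, 18 and 16) and the kinase gene Atm (12, 8, 8 and 11). Of 3 genes of KIF3A partners 2 did, Kif3b (20, 19, 10 and 19) and Kif3c (1344, 1250, 1340 and 852, sharing 2617 bp with a row on the other strand), while Kifap3 had 1, 0, 1 and 2. Of 8 other septin genes 5 did, with Sept7 highest in counts (122, 125, 89 and 88). Of 8 genes of IRF1 partners and targets 5 did, led by the immunoproteasome gene Psmb9 (237, 205, 292 and 206), which shares 212 bp with Tap1 (22, 47, 34 and 32). Of 10 other helper cytokine genes 4 did: Il2 (158, 133, 71 and 112), Il3, Il21 (44, 32, 30 and 23) and Tnf (6, 20, 5 and 11). Il9, Il24 and Il17a had 0 in all 4 libraries, and Ifng 1, 0, 1 and 0.

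The cell type label was checked on marker rows. All 8 T cell markers had more than 3 counts in every library, among them Cd4 (72, 59, 54 and 68) and Cd3e (18, 20, 6 and 9). Of the 8, 2 overlap an opposite-strand row. Cd3e lies opposite Gm48719 (2351, 2067, 2361 and 1692), and Cd247 (1360, 1364, 1278 and 972) shares 3007 bp with Pou2f1. Of 9 Th2 markers 6 had more than 3 counts in every library, including Gata3, Il4, Il13 and Ccr4 (42, 42, 21 and 17). Il5 was at 0 and Il1rl1, which encodes a receptor for interleukin-33, had 0, 0, 1 and 0. Il4, Il13 and Il5 are members of the locus, so they are no separate check of the label. Of the 9, 3 overlap an opposite-strand row: Gata3, Il5 and Ptgdr2 (249, 263, 216 and 147), which shares 1031 bp with Ccdc86. None of 3 Th1 markers had more than 3 counts in every library (sums of 2, 5, 4 and 4 in replicates 1 to 4). The same held for 3 Th17 markers (sums of 1, 7, 5 and 1). Only 26.5% of protein-coding rows, and 19.0% of those with no opposite-strand exon overlap, had more than 3 counts in every library. None of 3 is near these shares, so it does not set the Th1 and Th17 lists apart from other rows.

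Other cells that make interleukin-4 or interleukin-13 had few counts in their marker rows. Rows at 0 are common, as only 17327 of the 50600 rows of the table had a count in any library. Of 8 basophil and mast cell markers 6 were at 0 in all libraries, the defining genes Mcpt8, Fcer1a, Ms4a2 and Kit among them. The list summed to 11, 5, 10 and 4 counts, nearly all from Hdc (10, 5, 10 and 4), which makes histamine. Hdc was the only 1 of the 8 with more than 3 counts in every library, near the 19.0%. Of 4 eosinophil markers 3 were at 0 (sums of 2, 1, 1 and 4), and both innate-like T cell markers, Zbtb16 and Klrb1c, were at 0. Of 2 regulatory T cell markers Foxp3 had 667, 606, 682 and 490 counts, and Ikzf2 had 1, 1, 0 and 0. The Foxp3 row overlaps the opposite-strand row Ccdc22 by 590 bp, and Ccdc22 had 0, 1, 6 and 0 counts. Of 3 macrophage markers Csf1r had 1409, 1363, 1457 and 1066, while Adgre1 had 0 in all 4 libraries. The Csf1r row overlaps Hmgxb3 by 871 bp, and Hmgxb3 had 16, 9, 4 and 9 counts. Of the B cell markers Cd79a had 14, 8, 4 and 7 counts, and Ms4a1 had 0 in all 4 libraries. In bulk RNA fewer cells of a type and less RNA per cell cannot be told apart, and counts by row and strand set no limit on a gene's own transcript. The part of other cell types in the Il4 and Il13 counts was not tested.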

How the data were processed

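RNA of Th2 cells was sequenced in 4 libraries of 1 group. The labels call the assay total RNA but link a protocol for polyadenylated RNA. The authors deposited raw counts, read pairs summed per gene, which they made per the file headers with featureCounts 1.4.6-p4 (strand setting 1, both ends mapped, exons summed by gene, GENCODE vM13, mm10). The alignment file is named for STAR, whose version is not given in the sources used here. Exon length (bp) is deposited beside the counts. Names and types came from GENCODE vM21, with 224 of 50600 rows unmatched, and promoters from RefSeq.

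CPM and TPM (scaled to a sum of 1000000 per library) were computed from counts and exon lengths. Intervals (95%, Wilson) and the floor of 3 counts cover counting error alone, as pairs that lack molecular identifiers are not independent molecules. Ratios of log2(TPM + 1) were tested by flipping signs over libraries (exact, two-sided). Variation between replicates was tested with edgeR 4.0.16 (limma 3.58.1, R 4.3.3): a goodness-of-fit test of a negative binomial model with an intercept alone, trended dispersion, TMM factors, filterByExpr and Benjamini-Hochberg adjustment at 0.05, after a run on simulated data. DESeq2 1.42.0 gave alternative size factors. Other steps used SciPy 1.17.1, numpy 2.4.6 and pandas 2.3.3 in Python 3.11.15, with plots in Matplotlib 3.10.9.

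Named rows are the members, other rows of the stretch or sharing exon bases with a member, list members above 3 counts in every library, and the 3 protein-coding rows nearest Il4 and Il13. Further rows of low count, the housekeeping rows, Csf2, Il3 and the rows opposite list members were named after their values were seen. The members and lists were chosen with earlier results of these data known. Alternatives were a pseudocount of 0.1, CPM, rows set to at least 3 counts, totals without CT010467.1 and Gm42418, other detection rules, DESeq2 size factors, no filter, a common dispersion and leaving out each replicate. Scaling to rows without an opposite-strand overlap was added after the counts were seen. A few rows that this rule names are left out of the text.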

Additional observations from a re-analysis of the deposited data

How the results depend on the processing

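The 7 ratios kept their direction with a pseudocount of 0.1, with rows set to at least 3 counts, without CT010467.1 and Gm42418 and without each replicate. As CPM + 1, Il4 over Rad50 was -0.16 (exact p = 0.5) and Il13 over Rad50 -0.95 (exact p = 0.13), by construction, since exon length is then ignored; the other 5 ratios kept their direction. The level order had 5 steps beyond their spread, and 3 as CPM. Without replicate 3 Irf1 stood above Kif3a. Members over the count minimum numbered 4, and 3 to 6 under the other rules, with 4 or 5 when a replicate was left out. No member varied between replicates in edgeR under any setting, while the rows called of the whole table, 23, numbered 15 with no filter, 32 with a common dispersion, and 20, 16, 12 and 7 without replicates 1, 2, 3 and 4. Sept8, Kif3a and Irf1 had 0 to 12 counts per library, and at these counts the steps from Kif3a to Irf1 and from Irf1 to Sept8 did not exceed their spread.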
